A study of Rattus norvegicus with 24 samples.

Results

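Cajal-Retzius cell genes were followed in the developing hippocampus and neocortex of 24 rat pups from dams of 4 treatment groups. Members were the genes with the symbols Reln, Calb2, Tp73, Lhx1, Lhx5, Ndnf and Nhlh2, and 6 of the 7 had a row among the 17420 genes of the deposited TPM table. Ndnf had none and is not analysed here. All 6 were above the table's floor in every pup and were among the 13368 genes tested.

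Tissue came from Sprague-Dawley pups at embryonic day 18, from timed pregnant dams, with 6 pups per group taken from 2 litters of 3. Saline-treated controls came from dams injected with saline on gestational day 17. MAM pups came from dams given the DNA-methylating agent methylazoxymethanol acetate (22 mg/kg, i.p.) and Poly I:C pups from dams given the double-stranded RNA mimic polyinosine:cytosine (7.5 mg/kg, i.p.), both on the same day, 18 hours before collection. Low Protein pups came from dams fed a 6.1% protein diet from gestational day 11 to 18, and control dams ate an isocaloric diet of 20.3% protein over the same days. The sources used here do not say which diet MAM and Poly I:C dams ate, nor whether Low Protein dams were injected. Pups are named by litter and pup number, so that Saline 2-1 is pup 1 of saline litter 2. Pups of 1 dam shared an exposure, and each treatment was represented by 2 dams.

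Cajal-Retzius cells are among the earliest neurons of the cortex. They arise at the borders of the cortical sheet, chiefly the cortical hem, the pallial septum and the ventral pallium, spread through the marginal zone beneath the meninges, and are especially dense along the hippocampal fissure. They secrete Reelin, which binds the receptors Vldlr and Apoer2 on radially migrating neurons, acts through the adaptor Dab1 and orders the cortical layers. None of the members is expressed by these cells alone: Reln is also made by interneurons, Calb2 by interneurons and thalamic neurons, and Lhx1 and Lhx5 by neurons of the hypothalamus and thalamus.

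The values of each pup summed to 70350.1, and the smallest steps between low values followed the gene's genomic span, introns included, rather loosely: 49% to 54% of low values were within 0.05 of a whole read on that basis. What length the values were divided by is therefore not settled, and levels of 2 genes are not compared here as amounts of RNA. Summed levels of gene lists are used to compare pups, and the weight of each gene in a sum depends on that length. Estimated from the same steps, depth was 25.0 to 64.8 M reads per pup, with overlapping ranges in the 4 groups. On that estimate the members rested on at least 70.1 estimated reads in any pup (Lhx1), a counting error of at most 11.9%. The labelled tissue carried its markers, since the pallial genes Neurod2 and Neurod6 were present in every pup. Saline 2-1 and Low Protein 2-3 had the lowest summed level of fetal cortex genes, 239.8 and 282.6 TPM against 327.2 to 442.2 in the other 22 pups, so values without these 2 pups are given beside the results that they move most.

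The start-site regions of the members that RefSeq tables covered (build GRCr8, 250 bases before to 50 after the annotated start) are shown first, because the members later fell into sets that varied together. The table held 4 of the 7 members: Reln (chr4:13628318-13628617, plus strand), Tp73 (chr5:169963503-169963802, minus strand), Lhx1 (chr10:69901027-69901326, minus strand) and Nhlh2 (chr2:192132598-192132897, plus strand). The authors aligned to rn6, so these coordinates apply to the sequences alone. Capitals mark matches to the E-box CANNTG, the motif of basic helix-loop-helix factors such as Nhlh2 itself.
Reln: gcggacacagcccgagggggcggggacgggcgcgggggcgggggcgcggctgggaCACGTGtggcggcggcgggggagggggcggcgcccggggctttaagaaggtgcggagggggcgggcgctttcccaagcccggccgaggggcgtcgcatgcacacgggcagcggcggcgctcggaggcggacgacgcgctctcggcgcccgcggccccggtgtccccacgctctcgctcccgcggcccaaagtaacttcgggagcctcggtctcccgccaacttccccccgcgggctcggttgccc
Tp73: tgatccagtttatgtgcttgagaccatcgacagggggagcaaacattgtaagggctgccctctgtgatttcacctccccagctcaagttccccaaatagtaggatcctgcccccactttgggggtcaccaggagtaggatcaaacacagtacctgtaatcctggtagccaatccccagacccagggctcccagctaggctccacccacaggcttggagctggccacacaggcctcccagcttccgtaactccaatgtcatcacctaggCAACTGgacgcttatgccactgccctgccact
Lhx1: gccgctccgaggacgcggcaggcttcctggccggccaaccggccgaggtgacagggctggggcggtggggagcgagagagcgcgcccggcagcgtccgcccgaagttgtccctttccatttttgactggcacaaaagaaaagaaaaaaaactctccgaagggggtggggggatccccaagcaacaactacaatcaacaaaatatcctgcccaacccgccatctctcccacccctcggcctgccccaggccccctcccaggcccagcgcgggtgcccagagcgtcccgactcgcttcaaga
Nhlh2: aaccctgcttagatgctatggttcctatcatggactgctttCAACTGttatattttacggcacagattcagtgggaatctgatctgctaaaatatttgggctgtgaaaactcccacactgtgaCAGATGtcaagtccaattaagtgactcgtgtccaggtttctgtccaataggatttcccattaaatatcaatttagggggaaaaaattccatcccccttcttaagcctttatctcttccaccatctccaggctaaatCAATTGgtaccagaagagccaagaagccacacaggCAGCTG
The Nhlh2 region held 4 E-boxes, the Reln and Tp73 regions 1 each and the Lhx1 region 0. Over 33469 promoter windows of this length, 72.1% held at least 1. The LIM-homeodomain core TAATTA, searched on both strands like the others, was in none of the 4 windows and in 5.36% of all. The GC box GGGCGG occurred 4 times in the Reln window and 2 times in the Lhx1 window, and 33.1% of all windows held it. Base composition differed widely: 79.0% G and C for Reln, higher than 98.8% of all windows, 64.7% for Lhx1, 56.0% for Tp73 and 42.7% for Nhlh2. The Tp73 window lies 24523 bases inside the gene's upstream end, so it belongs to an internal start site. These matches describe letters in a window and are not binding sites.

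No Cajal-Retzius gene passed the test in any treatment. The comparison of each treatment with saline used limma on log2 TPM across all genes tested, with Benjamini-Hochberg adjustment. At an adjusted p under 0.05, 0 of the 6 members were called in Low Protein pups (0% of all genes tested), 0 in MAM pups (0.015%) and 0 in Poly I:C pups (0%). At an unadjusted p under 0.05 the members called were again 0 of 6 in each treatment, where 7.11%, 9.61% and 9.15% of all genes reached that level. In the F-test over the 4 groups 0 members were called, against 0.157% of genes after adjustment and 12.7% before it. No member separated any treatment from saline without overlap, whereas 0.673% of genes did so for Low Protein, 0.875% for MAM and 0.434% for Poly I:C. Under other settings some members did reach the unadjusted level: Reln in Low Protein pups in 10 of 46, in MAM pups in 4 and in Poly I:C pups in 2, Tp73 in MAM pups in 2 and in Low Protein pups in 1, and Lhx5 in Low Protein pups and Calb2 in Poly I:C pups in 1 each. With 6 members, counts of 0 beside shares of this size say little about the group as a whole.

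**Figure D1:**
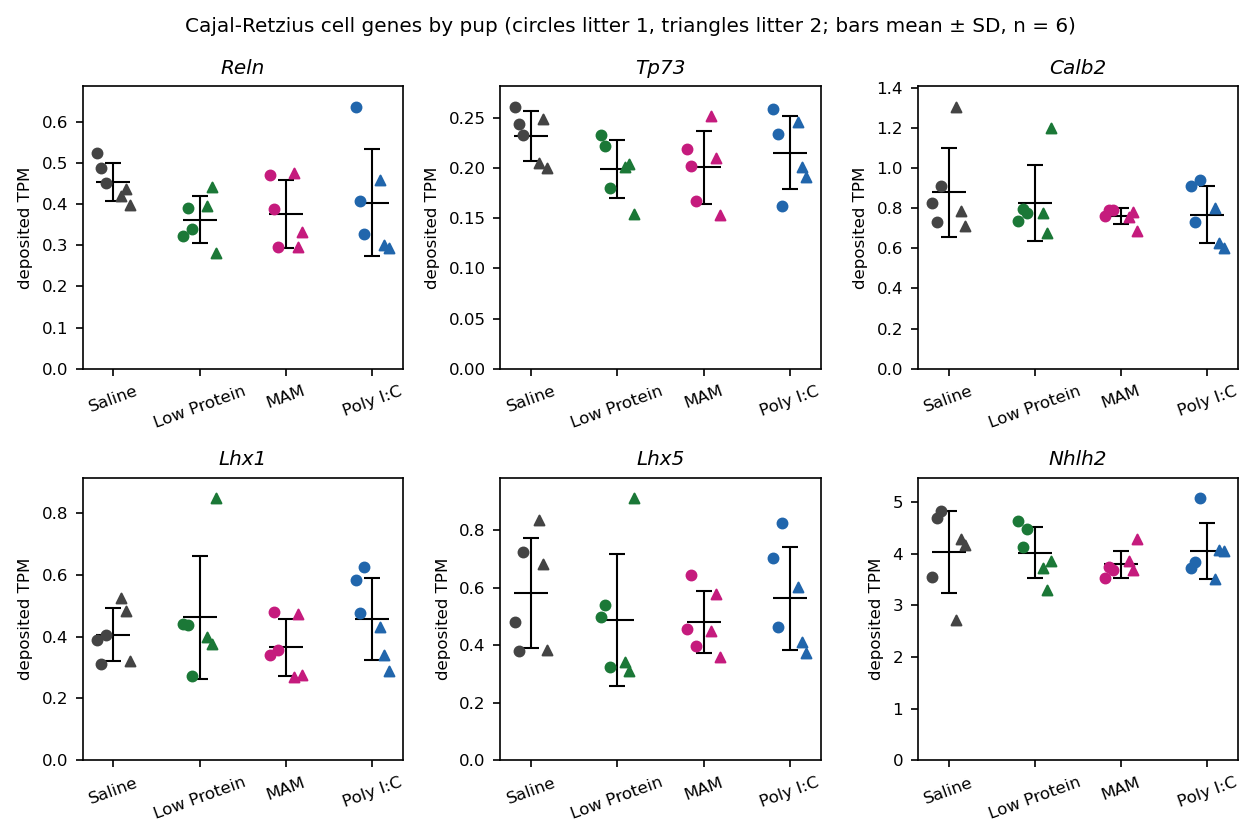
Deposited TPM of each Cajal-Retzius cell gene in each of the 24 pups. The x axis gives the maternal treatment and the y axis TPM from 0, with circles for pups of litter 1, triangles for pups of litter 2, and bars for the mean ± SD of 6 pups. Every treatment overlaps saline for every gene, Reln is low in 5 of 6 Low Protein pups, and single high pups stand out for Calb2, Lhx1 and Lhx5.

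Reln encodes the secreted glycoprotein Reelin, the main signal of Cajal-Retzius cells. In saline-treated controls it ranged from 0.399 to 0.525 TPM (median 0.444), and in Low Protein pups from 0.282 to 0.442 TPM (median 0.365). In MAM pups it ranged from 0.296 to 0.477 TPM (median 0.360), and in Poly I:C pups from 0.294 to 0.636 TPM (median 0.367). All 6 Low Protein pups were below the saline median and 5 were below the lowest saline pup. Also below the lowest saline pup were 4 MAM pups and 3 Poly I:C pups, while Poly I:C 1-1 was above every other pup of the study. Saline pups were the tightest group, with an SD of 0.046 TPM (n = 6) against 0.131 TPM in Poly I:C pups.

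The log2 difference of Reln from saline was -0.33 ± 0.17 (SE) in Low Protein pups, with a 95% interval of -0.68 to 0.01 (limma adjusted p = 0.703). It was -0.29 in MAM pups (interval -0.63 to 0.06, limma adjusted p = 0.544) and -0.22 in Poly I:C pups (interval -0.56 to 0.13, limma adjusted p = 0.729). Without Saline 2-1 and Low Protein 2-3 the differences were -0.28 for Low Protein, -0.31 for MAM and -0.24 for Poly I:C. An exact two-sided permutation test on the 12 pups of each comparison gave p = 0.0152 for Low Protein, 0.0758 for MAM and 0.266 for Poly I:C, where the smallest p that 6 against 6 allows is 0.00216. This is 1 of 18 such tests, over 6 members and 3 treatments, and none of the others was below 0.0649. Both Low Protein litters (means of 0.351 and 0.373 TPM) and both MAM litters (0.385 and 0.369 TPM) were below both saline litters (0.488 and 0.418 TPM). The Poly I:C litters stood on either side of the lower saline litter, at 0.456 and 0.351 TPM. Fewer Reelin-producing cells and less Reln RNA per cell cannot be told apart in bulk tissue.

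Tp73 encodes p73, a transcription factor whose loss depletes hem-derived Cajal-Retzius cells. Its level ran from 0.200 to 0.261 TPM (median 0.238) in saline pups and from 0.154 to 0.233 TPM (median 0.203) in Low Protein pups. MAM pups spanned 0.153 to 0.252 TPM (median 0.206) and Poly I:C pups 0.162 to 0.259 TPM (median 0.218). No treated pup exceeded the highest saline pup, and in each treatment 2 of 6 pups were below the lowest saline pup. All 6 Low Protein pups were below the saline median.

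The log2 difference of Tp73 from saline was -0.23 ± 0.13 (SE) in Low Protein pups (interval -0.49 to 0.04, limma adjusted p = 0.741). In MAM pups it was -0.22 (interval -0.49 to 0.05, limma adjusted p = 0.551), and in Poly I:C pups -0.12 (interval -0.39 to 0.15, limma adjusted p = 0.836). Exact permutation p-values were 0.0649, 0.115 and 0.346. Without Saline 2-1 and Low Protein 2-3 the log2 differences were -0.19, -0.26 and -0.15 in the same order. For this gene both litters of every treatment had a lower mean log2 level than both saline litters. The margin was narrow for Poly I:C litter 1, at -2.225 against -2.204 in saline litter 2 (0.218 TPM in each). With 2 litters a group, this ordering has no test of its own.

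Calb2 encodes calretinin, a cytosolic calcium buffer that fills Cajal-Retzius cell bodies and horizontal processes. Saline pups ranged from 0.712 to 1.30 TPM (median 0.805) and Low Protein pups from 0.675 to 1.20 TPM (median 0.776). MAM pups ranged only from 0.684 to 0.793 TPM (median 0.771), and Poly I:C pups from 0.600 to 0.938 TPM (median 0.766). The highest values belonged to the pups poorest in fetal cortex genes, Saline 2-1 at 1.30 TPM and Low Protein 2-3 at 1.20 TPM. All 6 MAM pups were below the saline median, yet only 1 was below the lowest saline pup. Log2 differences were -0.08 for Low Protein (interval -0.38 to 0.21), -0.18 for MAM (interval -0.47 to 0.12) and -0.18 for Poly I:C (interval -0.48 to 0.11). Without Saline 2-1 and Low Protein 2-3, they were -0.08, -0.06 and -0.06, and without Saline 2-1 alone the Low Protein value was 0.04.

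Lhx1 and Lhx5 encode closely related LIM-homeodomain transcription factors, and Lhx5 acts in the hem and hippocampal primordium where Cajal-Retzius cells are born. Lhx1 was between 0.312 and 0.526 TPM (median 0.397) in saline pups, between 0.273 and 0.847 TPM (median 0.418) in Low Protein pups, between 0.270 and 0.479 TPM (median 0.349) in MAM pups and between 0.289 and 0.624 TPM (median 0.453) in Poly I:C pups. Its spread over the 24 pups, 3.13-fold from lowest to highest, was the widest of the 6 members. Low Protein 2-3 alone stood at 0.847 TPM, and 2 Poly I:C pups were above the highest saline pup. Log2 differences were 0.12 in Low Protein pups (interval -0.35 to 0.60), -0.16 in MAM pups (interval -0.64 to 0.31) and 0.15 in Poly I:C pups (interval -0.33 to 0.62). The Low Protein value was -0.07 without Low Protein 2-3.

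Lhx5 was between 0.382 and 0.837 TPM (median 0.583) in saline pups, between 0.310 and 0.911 TPM (median 0.420) in Low Protein pups, between 0.361 and 0.645 TPM (median 0.453) in MAM pups and between 0.372 and 0.825 TPM (median 0.533) in Poly I:C pups. Low Protein 2-3 again held the highest value of the study, while 3 Low Protein pups were below the lowest saline pup. Log2 differences were -0.30 (interval -0.84 to 0.24), -0.24 (interval -0.77 to 0.30) and -0.04 (interval -0.58 to 0.50), in the order Low Protein, MAM, Poly I:C pups. These intervals were the widest among the members and hold changes in either direction. The Low Protein value was -0.50 without Low Protein 2-3, and -0.39 without Saline 2-1 as well.

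Nhlh2, a basic helix-loop-helix factor of young neurons, had the smallest difference from saline of all members in each treatment, an order that did not hold without Saline 2-1 and Low Protein 2-3. It was between 2.71 and 4.84 TPM (median 4.23) in saline pups, between 3.30 and 4.64 TPM (median 4.00) in Low Protein pups, between 3.54 and 4.29 TPM (median 3.71) in MAM pups and between 3.51 and 5.07 TPM (median 3.95) in Poly I:C pups. No treated pup was below the lowest saline pup, which was Saline 2-1, and 1 Poly I:C pup was above the highest. Log2 differences of 0.01, -0.07 and 0.02 had 95% intervals of -0.23 to 0.25, -0.30 to 0.17 and -0.22 to 0.26. Without those 2 pups the differences were -0.09, -0.18 and -0.09.

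**Figure D2:**
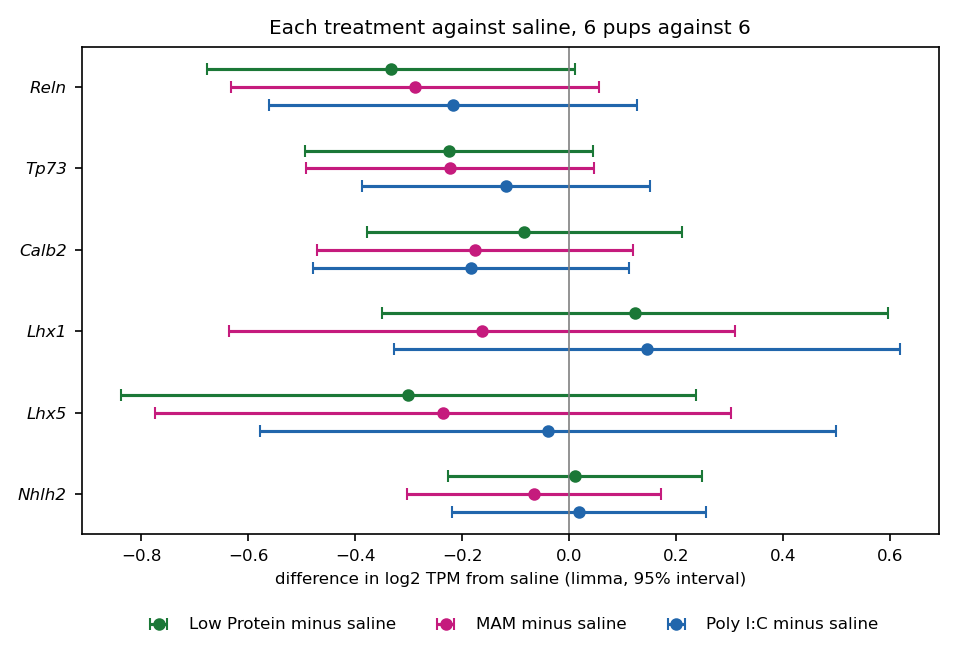
Difference in log2 TPM between each treatment and saline (x axis) for each of the 6 genes (y axis), with points for the limma estimate and bars for its 95% interval, 6 pups against 6. Every interval crosses 0, Reln in Low Protein pups comes nearest to excluding it with an upper bound of 0.01, and the bars of Lhx5 are the longest.

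Signs differed among the treatments. In MAM pups 6 of 6 members had a mean log2 level below saline, with a median difference of -0.20, beside -0.07 over all genes tested, 70.6% of which were below saline. In Low Protein pups 4 of 6 were below (median -0.15, beside -0.02 over all genes tested and 54.9% below), and in Poly I:C pups 4 of 6 (median -0.08, beside 0.00 and 49.3%). The 3 comparisons share the same 6 saline pups, so their signs are not separate evidence.

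The treatments were also compared with each other. Of 18 differences, over 6 members and 3 pairs of treatments, 0 had an unadjusted limma p under 0.05, where 17.9% of genes did so between MAM and Poly I:C, 8.57% between Low Protein and MAM and 4.89% between Low Protein and Poly I:C. The nearest was Lhx1, lower in MAM than in Poly I:C pups by a log2 difference of -0.31 (interval -0.78 to 0.17, limma adjusted p = 0.511).

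Across pups, some members varied together more closely than others. Reln and Tp73 varied together over the 24 pups (Pearson r = 0.76, Spearman rho = 0.78), and Lhx1, Lhx5 and Calb2 formed a second set (r = 0.83 for Lhx1 with Lhx5, 0.79 for Calb2 with Lhx5 and 0.72 for Calb2 with Lhx1). Between the sets, r ranged from -0.11 to 0.12, but it was 0.17 to 0.42 for all 6 pairs without Saline 2-1 and Low Protein 2-3, so the separation of the sets rests in part on those pups. Within the sets r was then 0.73 for Reln with Tp73, 0.78 for Lhx1 with Lhx5, 0.72 for Calb2 with Lhx5 and 0.63 for Calb2 with Lhx1. Nhlh2 had r from -0.30 to -0.06 with the other 5, and from -0.27 (Reln) to 0.24 (Lhx5) without the 2 pups. These correlations describe pups that share dams, tissue handling and library preparation, and no p-value is attached to them.

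Within each set, members varied together in every treatment group, but the relation between the sets differed by group. Reln and Tp73 had r = 0.85 among saline pups, 0.54 among Low Protein pups, 0.70 among MAM pups and 0.81 among Poly I:C pups, and 0.70 over the 22 pups left without those with the most extreme Reln levels. Lhx1 and Lhx5 had r = 0.93, 0.91, 0.85 and 0.92 in the same order, and 0.76 without the 2 pups with the most extreme Lhx1 levels. Calb2 and Lhx5 had r = 0.80, 0.86, 0.66 and 0.98, and 0.72 without Saline 2-1 and Low Protein 2-3. Between the sets, r ran from -0.35 to -0.03 among saline pups and from -0.79 to -0.40 among Low Protein pups. Among MAM pups it ran from -0.38 to 0.50, and among Poly I:C pups from -0.03 to 0.63 (Reln with Calb2). Among 12652 genes, Lhx5 was number 5 in likeness to Lhx1 and Lhx1 was number 16 in likeness to Lhx5. Tp73 came only at number 287 for Reln, and Reln at number 394 for Tp73.

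**Figure D3:**
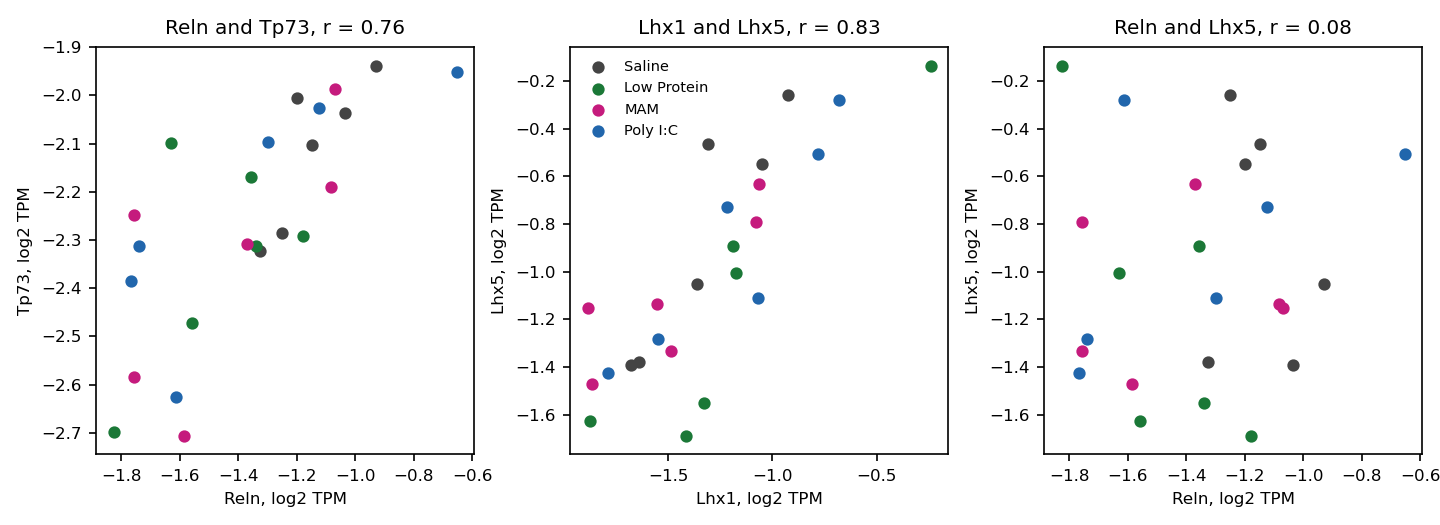
Log2 TPM of pairs of members, 1 point per pup coloured by maternal treatment. Reln and Tp73 (left, r = 0.76) and Lhx1 and Lhx5 (middle, r = 0.83) climb together in all 4 groups. Over the 24 pups Reln and Lhx5 (right, r = 0.08, or 0.23 without Saline 2-1 and Low Protein 2-3) do so far less. Within Poly I:C pups their r is 0.52 and within Low Protein pups -0.75. Low Protein 2-3 is lowest for Reln and highest for Lhx5.

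The genes whose levels most resembled each member over the 24 pups differed between the sets. For Reln they were Fry (r = 0.91), Map1b (0.91) and Map4 (0.91), the latter pair encoding microtubule-associated proteins. For Tp73 they were Dag1 (0.90), which encodes dystroglycan, the lysosomal prosaposin gene Psap (0.90) and the Golgi gene Glg1 (0.88). For Lhx5 they included Hap1 (0.94) and the calcitonin receptor gene Calcr (0.93), and for Lhx1 Dlk1 (0.87) and Zbtb7c (0.84). For Calb2 they were the imprinted gene Ndn (0.88), the nociceptin precursor gene Pnoc (0.87) and Gpx3 (0.86), and for Nhlh2 the chromatin protein gene Hmgb1 (0.93), Rida (0.85) and Aida (0.85).

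Reln and Tp73 moved with the balance of long against short genes. Each gene's log2 level was centred on its mean over pups, and the median over 1254 genes in the top 10% of genomic span (at least 130252 bases) minus that over 1256 genes in the bottom 10% (at most 4185 bases) gave an index of long against short genes. Its correlation with Reln was 0.82 and with Tp73 0.74, while for Calb2, Lhx1, Lhx5 and Nhlh2 it lay between 0.04 and 0.13. Without Saline 2-1 and Low Protein 2-3 it was 0.83 for Reln and 0.73 for Tp73, and 0.40 for Calb2, 0.28 for Lhx5, 0.21 for Lhx1 and 0.00 for Nhlh2. Without the 2 pups most extreme in the index the values were 0.77 for Reln and 0.73 for Tp73. Within saline pups they were 0.18 and 0.34, and within the 3 treatments 0.76, 0.86 and 0.97 for Reln and 0.55, 0.79 and 0.89 for Tp73 in the order Low Protein, MAM, Poly I:C.

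The index averaged 0.061 ± 0.091 (SD, n = 6) in saline pups, -0.023 ± 0.061 in Low Protein pups, -0.098 ± 0.124 in MAM pups and 0.027 ± 0.200 in Poly I:C pups. Reln, with a span of 426762 bases, is itself a long gene, whereas Tp73, at 84275 bases, is outside the top 10%. What the index reflects, and its part in the lower Reln and Tp73 levels of the treated pups, was not tested. Estimated reads per pup had r between -0.18 and 0.03 with the 6 members.

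Lhx5, Lhx1 and Calb2 moved with genes of the hypothalamus, which lies outside the labelled tissue. They moved with further Cajal-Retzius genes by 1 of 2 measures and against them by the other, as given below. In the latter measure, Cxcr4 and Nxph3 weigh most. A list of 13 hypothalamic genes (Otp, Sim1, Rax, Six6, Hmx2, Hmx3, Fezf1, Nr5a1, Pomc, Trh, Avp, Oxt and Gal) was added after Hap1 and Calcr were seen among the genes most like Lhx5. Its summed level ranged from 3.23 to 11.0 TPM in saline pups, 1.18 to 17.3 TPM in Low Protein pups, 1.83 to 12.8 TPM in MAM pups and 1.95 to 15.1 TPM in Poly I:C pups. The genes include the oxytocin gene Oxt and the vasopressin gene Avp, and 8 of the 13 were at the table's floor in some pups. None of the 9 tested had an unadjusted limma p under 0.05 in any treatment, while without Saline 2-1 and Low Protein 2-3, 2 were lower in Low Protein pups and 1 higher in MAM pups at that level.

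The log2 summed level of this list had r = 0.93 with Lhx5, 0.84 with Lhx1 and 0.72 with Calb2, and 0.07 with Reln, 0.00 with Tp73 and -0.07 with Nhlh2. Without Low Protein 1-3 and Low Protein 2-3, the pups most extreme in the list, r was 0.91, 0.78 and 0.73 for the first 3 genes. Without Saline 2-1 and Low Protein 2-3 it was 0.91, 0.79 and 0.67 for these, and 0.22 for Reln, 0.22 for Tp73 and 0.14 for Nhlh2. Low Protein 2-3 had the highest summed level (17.3 TPM) together with the highest Lhx1 and Lhx5. Within groups r for Lhx5 was 0.97 in saline pups, 0.95 in Low Protein pups, 0.90 in MAM pups and 0.93 in Poly I:C pups. A list of 6 thalamic genes (5 measured) had r = 0.55, 0.47 and 0.39 with Lhx5, Lhx1 and Calb2. Genes of the pallial septum and ventral pallium had r = 0.60, 0.59 and 0.42 in the same order. By the mean log2 level, in which all genes weigh alike, the thalamic list had 0.58, 0.53 and 0.41. The septum and pallium list then had 0.22, 0.16 and -0.04. Whether the dissected pieces held differing amounts of other tissue was not tested.

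**Figure D4:**
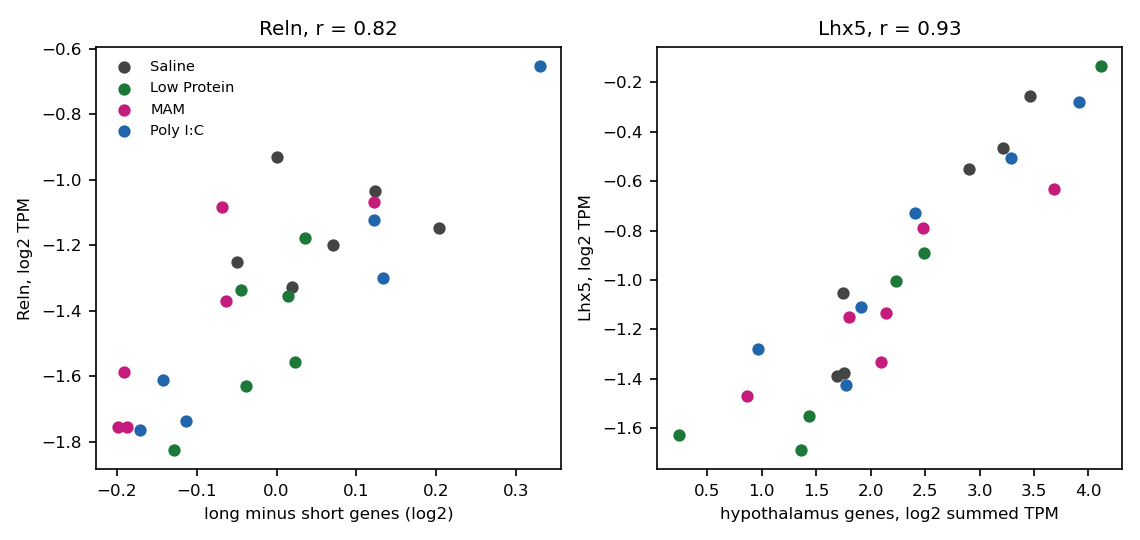
Left, Reln (log2 TPM, y axis) against the long-minus-short gene index (log2, x axis). Right, Lhx5 (log2 TPM, y axis) against the log2 summed TPM of 13 hypothalamic genes (x axis). Each point is 1 of 24 pups, coloured by treatment. Reln climbs with the index (r = 0.82) with Poly I:C 1-1 at the far upper right, and Lhx5 climbs with the hypothalamic genes (r = 0.93) with Low Protein 2-3 at the top.

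Markers of other sources were set beside the members by the log2 of their summed level, in which genes with the highest deposited TPM weigh most. Cortical hem genes had r = 0.60 with Tp73, 0.21 with Reln and -0.46 with Calb2, and the mean log2 level of the same list, in which all genes weigh alike, 0.40, 0.12 and -0.16. None of the 11 differed from saline at an unadjusted limma p under 0.05 in any treatment. Choroid plexus genes had r = 0.56 and meningeal genes 0.46 with Tp73 (0.68 and 0.43 by the mean log2 level), and 0 of 7 and 0 of 11 differed at that level. The same count was 0 of 6 for endothelium, 0 of 6 for blood and 0 of 5 tested for pallial septum and ventral pallium. Fetal cortex genes had r = -0.79 with Calb2, which was -0.44 without Saline 2-1 and Low Protein 2-3. Of the 8 measured, Bcl11b was lower in Low Protein pups (log2 difference -0.29) and Pax6 higher in Poly I:C pups (0.28) at an unadjusted p under 0.05. Of 8 striatal genes, Tac1 (-0.75) and Rarb (-0.62) were lower at that level in MAM pups. Of the 5 thalamic genes measured, Lhx9 (0.48) was higher in Poly I:C pups. Without Saline 2-1 and Low Protein 2-3 the lower count was 0 for the fetal cortex and striatal lists in every treatment, and 1 fetal cortex and 1 thalamic gene were higher in Poly I:C pups.

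Interneuron genes also bear on Reln and Calb2, which interneurons express. Of 11 measured, all 11 had a mean below saline in each treatment, and 7 were below at an unadjusted limma p under 0.05 in Low Protein pups, 3 in MAM pups and 2 in Poly I:C pups. In the same order, 7.11%, 9.61% and 9.15% of all genes tested reached that level in either direction. Of all genes tested, 54.9%, 70.6% and 49.3% were below saline. The list's counts at that level rested on Saline 2-1 and Low Protein 2-3, without which they were 1, 0 and 1. With those pups left out, 11, 10 and 8 of the 11 genes had a mean log2 level below saline. Among the genes past that level with all pups were Lhx6, the factor of medial ganglionic eminence interneurons (-0.48 in Low Protein and -0.34 in MAM pups), Gad1, which makes GABA (-0.47 and -0.43), and the somatostatin gene Sst (-0.65 in Poly I:C pups). No gene of the list had an adjusted p under 0.05. Their summed level was 124.5 to 213.7 TPM in saline pups, 90.0 to 125.6 TPM in Low Protein pups, 113.7 to 140.0 TPM in MAM pups and 79.5 to 132.5 TPM in Poly I:C pups, with the 213.7 TPM in Saline 2-1. It had r = 0.63 with Calb2 (0.45 without Saline 2-1 and Low Protein 2-3) and 0.41 with Reln (0.54 without them), and the part of interneurons in the levels of these genes was not tested.

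**Figure D5:**
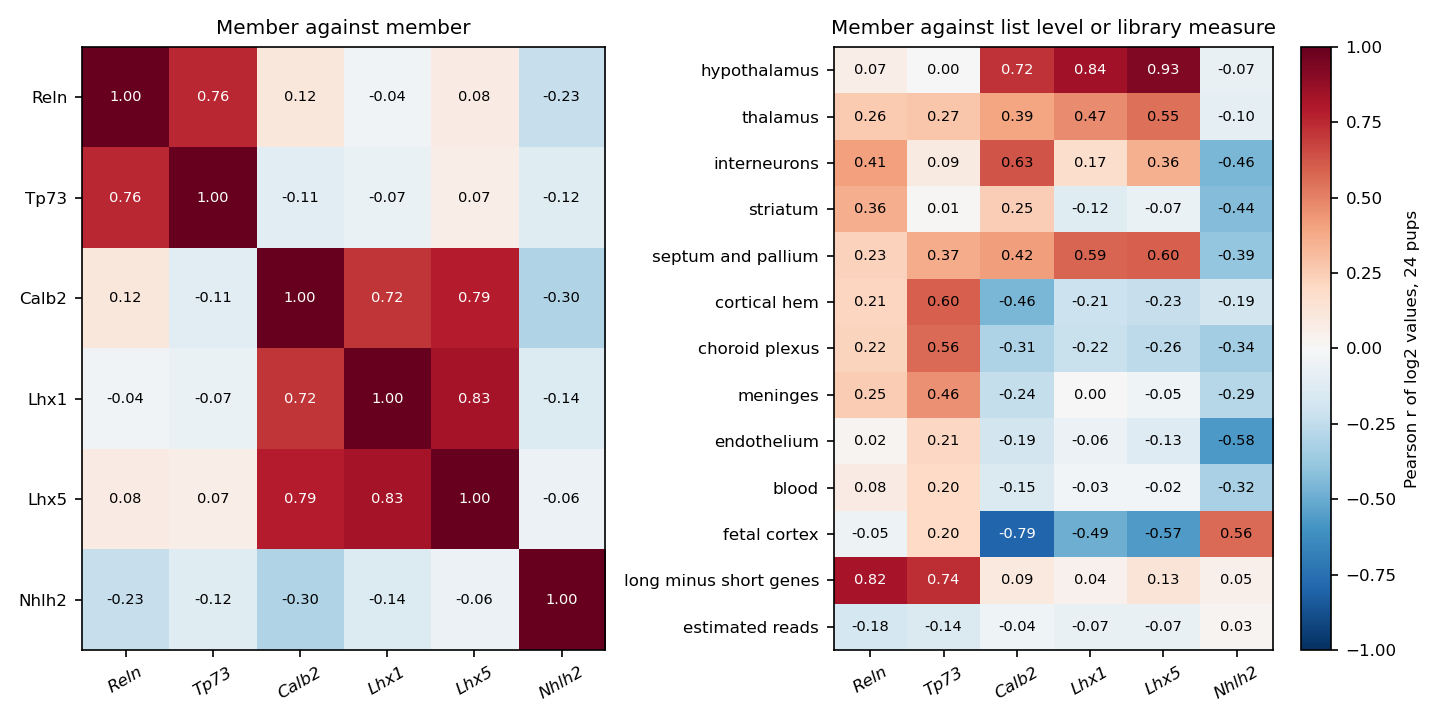
Pearson r over 24 pups between log2 levels of the members (left) and between each member and the log2 summed level of lists of marker genes, the long-minus-short gene index and log2 estimated reads (right), on a colour scale from -1 (blue) to 1 (red). Reln with Tp73 and Calb2 with Lhx1 and Lhx5 form the red blocks on the left, and on the right the hypothalamic list is red for the second block (0.72 to 0.93) and the index for the first (0.74 and 0.82).

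Other genes known from Cajal-Retzius cells were examined too. Of 7 listed, 6 were measured, and 1, the calcium channel subunit gene Cacna2d2, was lower in Low Protein pups at an unadjusted limma p under 0.05 (log2 difference -0.50 ± 0.22 SE, adjusted p = 0.683). Ebf2, Ebf3, Nxph3, Cxcr4 and Barhl2 were not past that level in any treatment. The count without Saline 2-1 and Low Protein 2-3 was 0 in Low Protein and MAM pups and 1 lower in Poly I:C pups. Cxcr4, the receptor that holds Cajal-Retzius cells beneath the meninges, had mean levels of 15.6 TPM in saline pups, 15.7 TPM in Low Protein pups, 16.1 TPM in MAM pups and 15.3 TPM in Poly I:C pups. By the mean log2 level of the 6 genes, r was 0.68 with Calb2, 0.68 with Lhx5 and 0.52 with Lhx1. It was 0.54 with Reln, 0.37 with Tp73 and -0.23 with Nhlh2. By their log2 summed level, r was -0.55, -0.65 and -0.73 for Calb2, Lhx5 and Lhx1. For Reln, Tp73 and Nhlh2 it was 0.03, 0.04 and 0.36, so the 2 measures disagree. The summed level weighs Cxcr4 and Nxph3 most, with saline means of 15.6 and 5.17 TPM, against at most 1.01 TPM for the other genes.

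Genes that receive and relay the Reelin signal were given from lists of receptors, adaptor and kinases, of downstream relay and of turnover. Of the 5 measured in the first list, 0 had an unadjusted limma p under 0.05 in any treatment. The receptor gene Vldlr had log2 differences of -0.14 in Low Protein pups, -0.20 in MAM pups and -0.13 in Poly I:C pups, and the adaptor gene Dab1, named for its role, of 0.06, 0.05 and 0.01 in the same order. Of 15 relay genes, Pik3r1, a regulatory subunit of PI3-kinase (-0.23), and Pafah1b1, which encodes the dynein regulator Lis1 (-0.24), were lower in MAM pups and the kinase gene Cdk5 (-0.13) in Poly I:C pups at that level. No relay gene reached it in Low Protein pups. Of the 5 turnover genes measured, which cover Reelin proteases and the ligase that degrades Dab1, 0 reached it, and in Poly I:C pups the protease gene Plat had a log2 difference of -0.20. Without Saline 2-1 and Low Protein 2-3, 6 relay genes and 1 turnover gene were lower in MAM pups at that level and 1 relay gene in Poly I:C pups. The count over the 13368 genes tested, in either direction, also rose in MAM pups, from 1285 with all pups to 1895 without those pups. With all pups, 70.6% of all genes tested were below saline in MAM pups. Whether the larger relay count, 6 of 15 genes, goes beyond the rise over all genes was not tested. None of the 25 receptor, relay and turnover genes had an adjusted p under 0.05.

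Relatives of the members in the same gene families were examined last. Of 7, in Low Protein pups 1 was higher and 1 lower than saline at an unadjusted limma p under 0.05, in MAM pups likewise 1 and 1, and in Poly I:C pups 3 were higher and 0 lower, including Lhx6 and Lhx9 above. These counts without Saline 2-1 and Low Protein 2-3 were 2 higher and 1 lower, 0 and 0, and 2 and 0. Lhx2, which patterns the cortex against the hem, was among those higher in each of the 3 treatments, with log2 differences of 0.25, 0.25 and 0.28 (adjusted p = 0.679, 0.518 and 0.455). Nhlh1, the closest relative of Nhlh2, had a log2 difference of 0.37 in Poly I:C pups (limma adjusted p = 0.466), where Nhlh2 had 0.02. The calbindin gene Calb1 did not pass this level in any treatment. Tp63 was barely detected, with group means of at most 0.000462 TPM.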

How the data were processed

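RNA-seq of hippocampus and neocortex from 24 pups was analysed. The authors trimmed reads (phred 30), aligned them to rn6 with STAR v2.4.1d, quantified them in Partek Flow and deposited TPM values with an offset of 0.0001. At this offset lay 20.9% of values. The deposited values sum to 70350.1 per pup and carry no counts, so depth was estimated from the steps between low values, using GRCr8 gene spans matched for 97.6% of rows. From 49% to 54% of low values were within 0.05 of a whole read, so these depths are approximate.

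Genes above the offset in at least 18 pups (13368) were tested on log2 TPM, with no further pseudocount, using limma 3.58.1 (R 4.3.3) with all 4 groups in 1 fit and a trended variance. The script was tested on simulated data. Exact two-sided permutation tests covered each member. Pups from 1 dam are not independent, so p-values measure the spread between pups. Members and lists were chosen with earlier results of these data known. All members were named, and of each list at most the 4 genes with the smallest p, the highest genes of other cell types, and for each member the 3 genes most alike (12652 genes above the offset in all pups). A few genes that this rule names are not reported here. Lists covered other Cajal-Retzius genes, Reelin receptors, relay and turnover, hem, septum and ventral pallium, paralogs, meninges, interneurons, thalamus, striatum, choroid plexus, endothelium, blood, fetal cortex and hypothalamus. Alternatives changed the filter, pseudocount, scaling, samples, litter terms, variance model and pups. Over all genes tested, same-numbered pups did not deviate together (r from -0.11 to 0.18 over 36 pairs).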

Additional observations from a re-analysis of the deposited data

Results flagged for a closer look

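Calb2 in Low Protein 2-3 stood apart from the other 5 Low Protein pups: at 1.20 TPM it was the highest, and its gap to the next pup on log2 values was 0.719 of the group's log2 range, above Dixon's 95% critical value. Calb2 in MAM 2-3 was the lowest of the 6 MAM pups at 0.684 TPM, with a gap of 0.671 of a narrow log2 range. Chance flags about 1 in 20 groups, and 24 groups of 6 pups were examined.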

How the results depend on the processing

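The 18 differences of members from saline were recomputed under 47 settings, 831 values in all, and 0 had an adjusted limma p under 0.05. Reln and Tp73 were below saline in every value (Low Protein Reln from -0.44 to -0.22 with a pup or litter left out), while 28 values of other members changed sign. Leaving out pups or litters, Low Protein values ran from -0.20 to 0.0368 for Calb2 (the positive value without Saline 2-1), from -0.0867 to 0.33 for Lhx1 and from -0.13 to 0.15 for Nhlh2. MAM values of Nhlh2 ran from -0.19 to 0.0566, and Poly I:C values from -0.30 to 0.22 for Lhx5, from -0.19 to 0.48 for Lhx1 and from -0.10 to 0.14 for Nhlh2. With Saline 2-1 and Low Protein 2-3 both left out, chosen after seeing the data, Nhlh2 was at -0.0885 in Low Protein pups and -0.0910 in Poly I:C pups and Lhx5 at 0.0788 in Poly I:C pups. Scaling by upper quartile put Nhlh2 at -0.00058 in Poly I:C pups. Genes called over the whole table changed more: 1 for Low Protein under median-of-ratios scaling, 1 for MAM with a mean above 1 in each group, 0 for MAM and 0 for the 4 groups on litter means, and 39 for the 4 groups without both pups. With a pup or litter left out, they ran from 0 to 13 for Low Protein, 0 to 3 for MAM, 0 to 253 for Poly I:C (the highest with its litter 1 removed) and 0 to 46 for the 4 groups. The cause was not tested. Over all genes tested, pups sharing a number in their titles did not deviate together, and whether they did for single members was not tested. The replicate block left 1 gene called for MAM, and Reln in Low Protein pups stayed at -0.33 (limma adjusted p = 0.480), with Reln and Tp73 past the unadjusted 0.05 in Low Protein and MAM pups. With this block the SE of the Low Protein difference fell from 0.166 to 0.135 for Reln and from 0.130 to 0.090 for Tp73. It also fell for Nhlh2 and rose for Calb2, Lhx1 and Lhx5.

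With a mean above 1 in each group, as the study required, Nhlh2 was the only member tested. Counting error (at most 11.9%) was below the spread between pups for Lhx1, the least covered member. Depth is an estimate, gene spans come from another build than the alignment, and each treatment has 2 dams, so intervals describe pups, not dams.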
